A study of Mus musculus with 28 samples.

Results

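In mouse embryonic stem cells (mESCs), 493 regions of the autosomes lay in an H3K9me2 domain both with EHMT2 and after its depletion, and in no H3K9me2 domain of 2-cell-like cells (2CLCs) under either treatment. They are called mESC-shared regions here. The regions were chosen by the deposited domain positions themselves. On chromosomes 1 to 19, bases present in the mESC DMSO list and in the mESC dTAG list, and absent from the 2CLC DMSO list and the 2CLC dTAG list, were taken, segments less than 1 kb apart were merged, and runs of 10 kb or more were kept. The 4 lists hold 22791 domains on these chromosomes, and 996 Mb of sequence lay in both mESC lists. The 493 regions covered 12.4 Mb of it (1.25%), which is 0.505% of the autosomes. Since the 4 lists selected the regions, their presence and absence in those lists is a description and was not tested.

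The sorted cells were of the line EHMT2-dTAG-mcherry MERV-GFP, of a BL6/129 hybrid background, in which the endogenous Ehmt2 gene carries a degron and a GFP reporter marks MERVL-expressing cells. All 4 sorted groups carried these alleles and grew in FBS/LIF. They received dTAG-13, which removes the tagged EHMT2, or its solvent DMSO for 72 h before sorting into GFP-negative mESCs and GFP-positive 2CLCs. Each of the 4 sorted groups has 3 ULI-NChIP libraries (native chromatin immunoprecipitation for low cell numbers) and 3 input libraries, and bulk mESCs after 24 h in DMSO gave 2 of each. The sorted cells came from a single clone. By the labels, 2 of the replicates also received TTNBP, an agonist of retinoic acid receptors. The methods mention the agonist without that limit, and its part in any list was not tested. Each sorted group is represented by 1 list of domain positions, in bins of 5 kb. No library has values of its own in the lists, the depth behind a domain is unknown, whether replicates were pooled was not stated, and no spread between cultures could be computed. The cell-state labels were not checked against marker genes, because the lists hold positions and no levels. The remaining list, whose name gives neither cell state nor treatment, was not used by the rule and is called the unnamed list.

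H3K9me2 is a repressive dimethyl mark on lysine 9 of histone H3. In mESCs it is laid down largely by EHMT2 (also known as G9a) together with its partner EHMT1, and forms broad domains over gene-poor and silent sequence. 2CLCs are rare cells of mESC cultures that express MERVL retroelements and other transcripts of the 2-cell embryo. A region that stays in a domain when EHMT2 is removed need not keep the same amount of the mark, since a domain is a call on the ratio of immunoprecipitation to input.

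Before the values, sequence from the middle of 3 regions is shown as an example. They are the widest region of each of the 3 classes described below, except that the widest region of the edge class (chromosome 12), whose sequence is largely repeated, is replaced by the next widest. The sequences are 200 bases of the forward strand of GRCm38.p6 (the mm10 build), with bases outside the soft mask of repeats in capitals. The edge region within Adamts3 (centre at chr5:89786074-89786273) had 0 of 200 unmasked bases at its centre, the free region (centre at chr15:86803521-86803720) had 200, and the gap region within Pde3a (centre at chr6:141436119-141436318) had 171. Over the whole of these regions 23.3%, 23% and 22.4% of bases were soft-masked, so that the centres do not stand for the regions.
Edge region, chromosome 5: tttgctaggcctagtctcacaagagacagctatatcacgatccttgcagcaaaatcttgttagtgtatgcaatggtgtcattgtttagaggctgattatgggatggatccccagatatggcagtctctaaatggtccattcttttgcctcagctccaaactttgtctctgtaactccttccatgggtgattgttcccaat
Free region, chromosome 15: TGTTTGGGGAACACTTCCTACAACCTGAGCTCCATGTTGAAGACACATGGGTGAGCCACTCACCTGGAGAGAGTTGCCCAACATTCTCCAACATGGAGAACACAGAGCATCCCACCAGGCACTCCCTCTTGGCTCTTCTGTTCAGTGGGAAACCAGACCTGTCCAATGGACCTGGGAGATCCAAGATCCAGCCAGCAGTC
Gap region, chromosome 6: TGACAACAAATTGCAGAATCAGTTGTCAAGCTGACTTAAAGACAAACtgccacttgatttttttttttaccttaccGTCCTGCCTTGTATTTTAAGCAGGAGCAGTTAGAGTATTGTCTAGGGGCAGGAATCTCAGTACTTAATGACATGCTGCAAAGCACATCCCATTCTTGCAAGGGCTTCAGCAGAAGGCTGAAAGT

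Membership in the lists was settled by the rule, but the width of a run was not. The median width was 15 kb (quartiles 10 and 30 kb) and the widest region had 155 kb. 163 regions (33.1%) were 2 bins wide, 98 were 3 bins wide, 58 (11.8%) reached 50 kb and 9 reached 100 kb. The minimum of 10 kb divided a continuous series of widths. 502 further runs fell under it, 499 of them of a single bin. Just outside, 3 runs of 2 bins missed the limit with 9999 bases each, and just inside, 163 runs of 2 bins had 10000 bases each.

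The regions were compared with their mirror image, the runs that lay in both 2CLC lists and in neither mESC list. By the same steps there were 511 such 2CLC-shared regions with 13.2 Mb, so that they exceeded the mESC-shared regions by a ratio of 1.04 in number and 1.06 in length. Their median width was 20 kb (quartiles 12.5 and 35 kb). The ratio in number was not stable. It was 0.938 when single bins were kept and 0.975 when only domains of at least 50 kb entered, and 1.22 for runs of at least 25 kb and 1.52 when the domains taken out were widened by 25 kb on each side.

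Most regions adjoined a 2CLC domain, which is in part set by the rule. It takes 2CLC domains out of sequence shared by the mESC lists. A region can therefore end only where a 2CLC domain begins or an mESC domain stops. 324 of 493 (65.7%, 95% Wilson interval 61.4 to 69.8) had a 2CLC domain of either treatment within 1 kb on 1 side and are called edge regions. 99 (20.1%, 16.8 to 23.8) had one on both sides and are called gap regions, and 70 (14.2%, 11.4 to 17.6) had one on neither side and are called free regions. These intervals count regions as if independent, although neighbours can share a domain, and cover no variation between cultures. Free regions were wider, with a median of 25 kb (quartiles 15 and 40 kb) against 15 kb for edge and 10 kb for gap regions, and made up 2.46 Mb. The free share was larger in the mirror set, with 162 of 511 (31.7%, 27.8 to 35.9). Only 18 mESC-shared regions (3.65%), called isolated below, had no 2CLC domain within 50 kb. In the mirror set, 90 regions (17.6%) had no mESC domain within that distance. The mESC lists hold 3870 (DMSO) and 6770 (dTAG) domains, and the 2CLC lists 3870 and 8281. Mirror regions thus had fewer domains to touch, and the part of this in both differences was not tested.

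**Figure D1:**
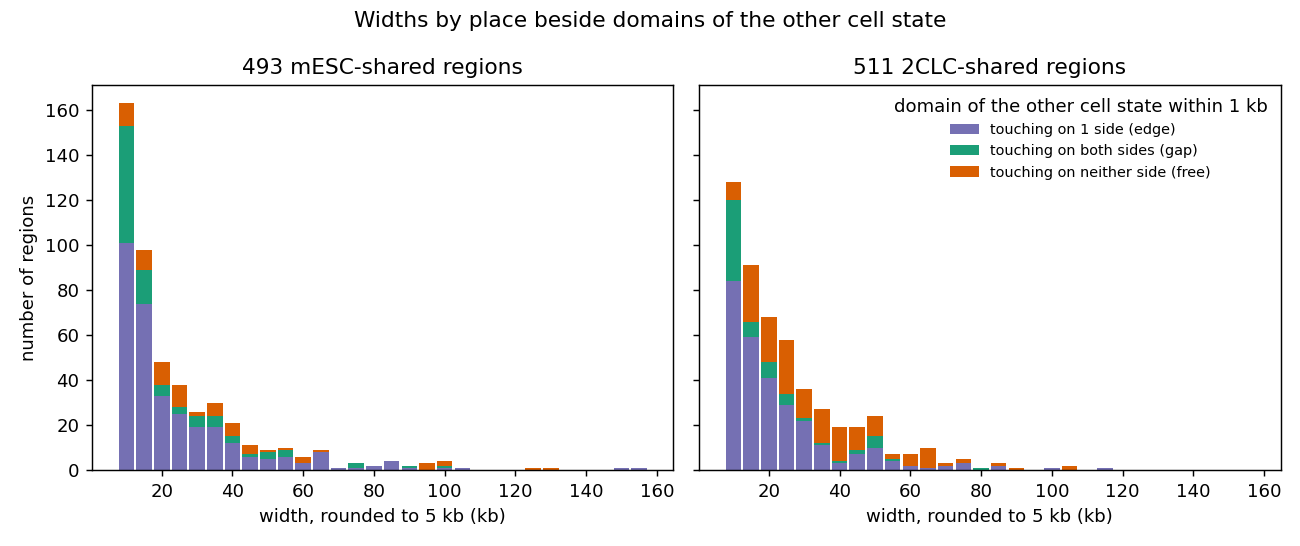
Number of regions (y) by width in kb (x) for the 493 mESC-shared regions and the 511 2CLC-shared regions, with bars stacked by whether a domain of the other cell state lay within 1 kb on 1 side (edge), both sides (gap) or neither side (free). In mESC-shared regions 163 of 493 sit in the lowest bar, at 10 kb, and edge regions form the largest class with 324.

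The adjoining domains came more often from depleted 2CLCs. A 2CLC dTAG domain alone touched 235 regions, a 2CLC DMSO domain alone touched 105, both touched 83 and neither touched 70. The median distance to the nearest 2CLC dTAG domain was 0 kb (quartiles 0 and 10 kb), and to the nearest 2CLC DMSO domain 20 kb (quartiles 0 and 105 kb). The 2CLC dTAG list holds 8281 domains and the 2CLC DMSO list 3870, so that the former has more ends to touch. How much of the difference this accounts for was not tested.

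Seen from the mESC side, the regions were mostly interior pieces of DMSO domains and ends of dTAG domains. They lay in 406 mESC DMSO domains (10.5% of that list), whose median width over the regions was 230 kb, and in 457 mESC dTAG domains (6.75%), with a median of 80 kb. 353 regions reached an end of their dTAG domain and 141 an end of their DMSO domain. The mESC dTAG list holds 6770 domains and the mESC DMSO list 3870, so that the former has more ends to reach. The part of this in the difference was not tested. Whole mESC domains were rare. 39 regions spanned an entire dTAG domain, 10 an entire DMSO domain, and 3 an entire domain in both treatments. 88 lay in the interior of both. The regions fell in 465 separate stretches shared by the mESC lists, 28 of which held 2 regions.

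Around the region centres the 4 lists converged at different rates. At 25 kb to the right of the centre, 82.6% of the regions were still in an mESC DMSO domain and 60.9% in an mESC dTAG domain, while 27% were in a 2CLC DMSO domain and 41% in a 2CLC dTAG domain. In regions wider than 50 kb the rule fixes the values up to that distance, so that these shares are in part set by it. At 150 kb to the right the shares were 61.1%, 38.9%, 39.6% and 39.8%. The mESC DMSO list thus stayed above the other 3 sorted lists, beside its 52.4% of all autosomal sequence, while the mESC dTAG, 2CLC DMSO and 2CLC dTAG lists cover 44.6%, 49.7% and 46.7% of it.

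**Figure D2:**
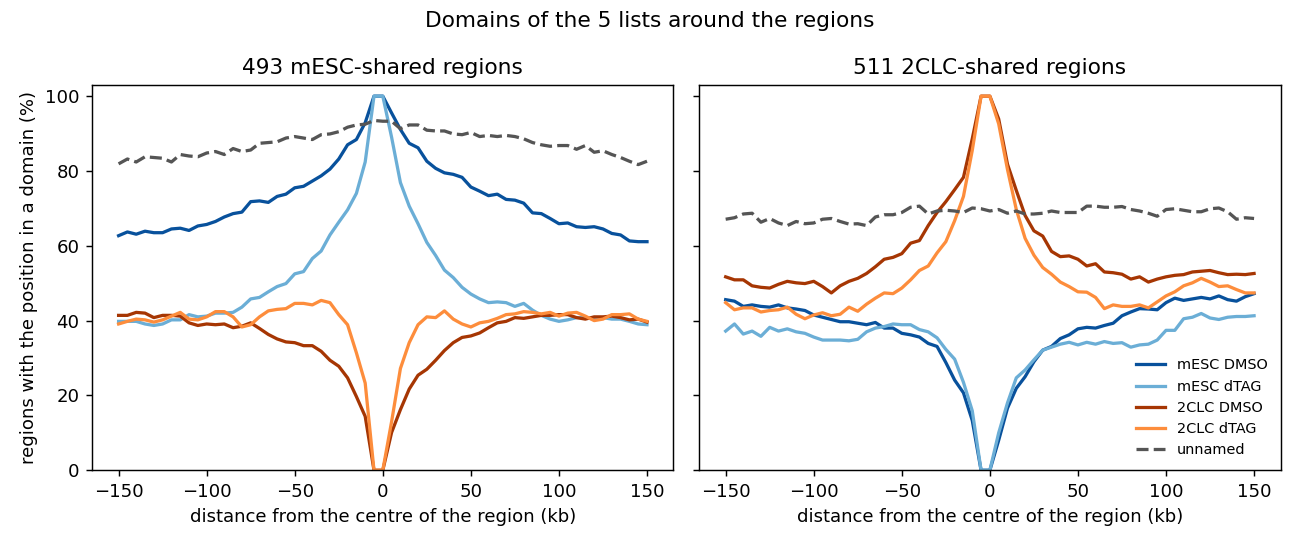
Percentage of regions (y) whose sequence at a given distance in kb from the region centre (x) lay in a domain of each of the 5 lists, for mESC-shared regions and for 2CLC-shared regions. The values at the centre and 5 kb to its left, and further out in wide regions, are fixed by the rule for the 4 sorted lists. At 150 kb to the right the mESC DMSO line of the mESC-shared regions is at 61.1% with the other 3 sorted lists between 38.9% and 39.8%.

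The 10 widest regions show these arrangements one by one. The widest, 155 kb at chr12:19432103-19587102, was an edge region without a protein-coding gene. 82.5% of its 50-base words occur more than once on the same strand of the chromosome, the highest share of all regions, so that reads there could have been placed at several sites. The part of this in the call was not tested. In the other 9 this share lay between 0.833% and 3.96%. The second, 150 kb at chr5:89711175-89861173, lay wholly in the body of Adamts3, which encodes a protease that processes procollagen, and 0.828% of its bases were exonic. A 2CLC dTAG domain touched its left end and the 2CLC DMSO domains were 35 and 60 kb away.

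The widest free region, with 130 kb at chr15:86738622-86868620, was also the widest with no 2CLC domain within 50 kb. It lay outside protein-coding genes, filled an mESC dTAG domain of 130 kb, and was part of an mESC DMSO domain of 295 kb. The nearest 2CLC domain, of DMSO, was 80 kb away on its right, and on its left the next 2CLC DMSO domain was 3945 kb away. A second isolated region, of 100 kb at chr1:78035106-78135105, overlapped Pax3, which encodes a transcription factor of neural crest and muscle precursors, over 33.8% of its bases. It held no gene start, and the nearest 2CLC domain was 90 kb away. The free region of 125 kb at chr9:52626554-52751553 held the start of AI593442, the only gene start in the 10 widest regions.

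Both a free region of 100 kb (chr8:118317852-118417851) and an edge region of 100 kb (chr8:118657852-118757851) lay within Cdh13, which encodes T-cadherin, a cadherin anchored to the membrane by a lipid. They belonged to the same mESC DMSO domain, of 555 kb, and to separate mESC dTAG domains of 100 and 125 kb. The widest gap region, 100 kb at chr6:141386220-141486218, lay within Pde3a, which encodes a cyclic nucleotide phosphodiesterase, and had a 2CLC DMSO domain directly at each end. The last 2 of the 10, an edge region of 105 kb at chr7:68874571-68979570 and a free region of 95 kb at chr9:98056494-98151493, overlapped no protein-coding gene. All 10 were wholly covered by the unnamed list.

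**Figure D3:**
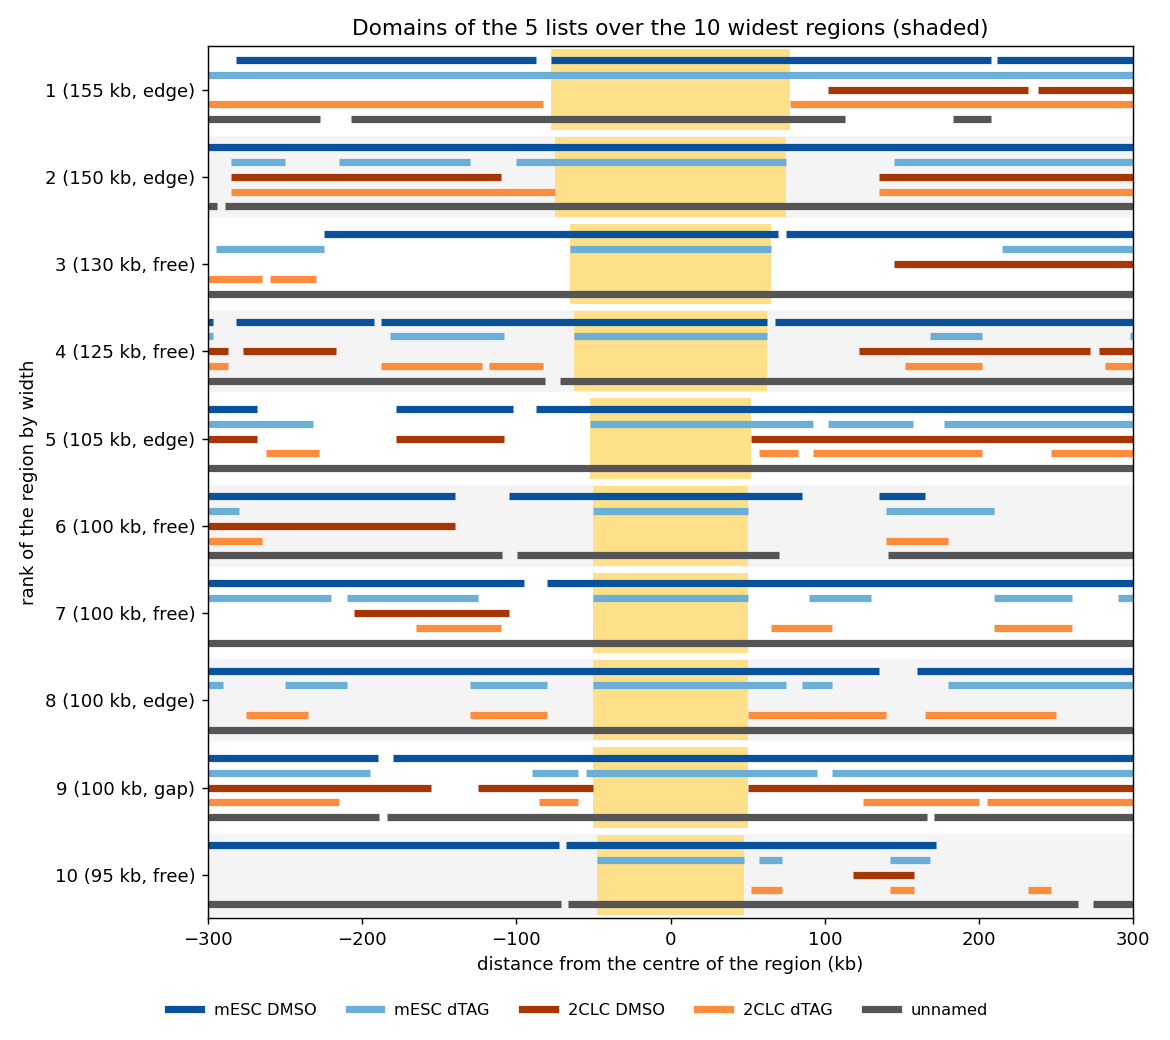
Domains of the 5 lists (bars) against distance in kb from the region centre (x) for the 10 widest regions, ordered by width (y), with the region shaded. In each region both mESC lists fill the shaded part and both 2CLC lists leave it empty, as the rule requires, and the unnamed list fills it in 10 of 10.

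The unnamed list was the only readout that the rule had not used. The libraries behind it are not known, and if it was called from the same sorted libraries it is not an independent readout. It covered at least 50% of the bases in 464 of 493 regions (94.1%, Wilson interval 91.7 to 95.9), beside 63.3% of all 5 kb windows of the autosomes. 428 regions (86.8%) were wholly covered and 22 had no covered base. The share was 96% in gap (90.1 to 98.4), 94.1% in edge (91 to 96.2) and 91.4% in free regions (82.5 to 96). These intervals too count regions as if independent, and a difference between classes was not tested. By width, the share was 93.9% in regions of 2 bins and 58 of 58 in those of at least 50 kb (widths to within 10 bases). In the runs under 10 kb it was 86.9%. In the mirror regions it was 358 of 511 (70.1%, 66 to 73.9), and 125 of them had no covered base.

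This coverage was not particular to the regions. Divided by membership in the 4 sorted lists, the autosomes give 16 combinations. In the 8 combinations that include the mESC DMSO list, the unnamed list covered 82.5% to 96.5% of the bases. It covered 93.3% of all bases in both mESC lists and neither 2CLC list, 94% of bases in all 4 lists and 95.1% of bases in the mESC DMSO list alone. In the 8 combinations without the mESC DMSO list it covered 24% to 79.8%, with 44.7% for bases in the mESC dTAG list alone and 73.7% for those in both 2CLC lists only. Within these, it covered 67% to 79.8% in the 4 combinations with the 2CLC DMSO list and 24% to 44.7% in the 4 without it. Coverage by the unnamed list was thus higher where either DMSO list held the bases, and highest with mESC DMSO. Among the isolated regions, that of 20 kb within Atxn7l1 (chr12:33222085-33242084) had no base in the unnamed list. 30.5% of its 50-base words recur on the same strand of the chromosome and 48.7% of its bases are soft-masked. It was named for this after its values were seen. Of all 18 isolated regions, 13 were wholly and 3 partly in the unnamed list, their median width was 25 kb, 13 met a gene body and none held a gene start.

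**Figure D4:**
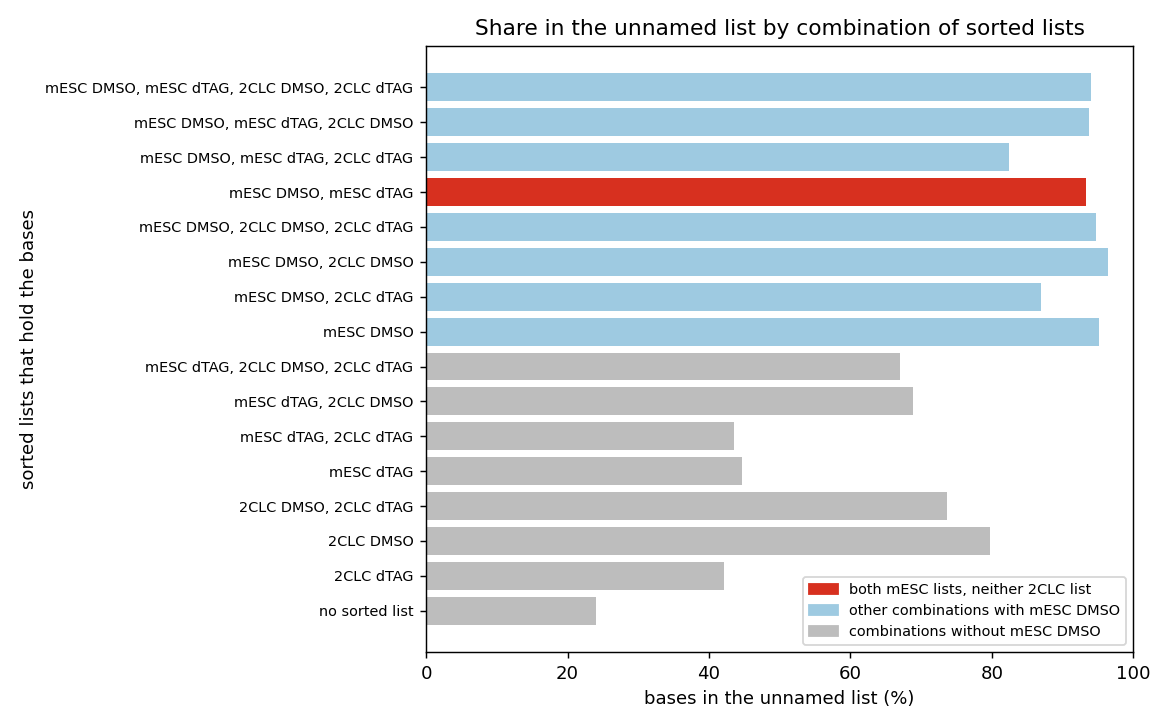
Percentage of bases in the unnamed list (x) for each of the 16 combinations of the 4 sorted lists on the autosomes (y). The combination from which the regions come is at 93.3%, within the range of 82.5% to 96.5% of the 8 combinations with mESC DMSO, and the 8 without it are at 24% to 79.8%.

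The regions held few gene starts. 44 protein-coding genes started in them, 0.211% of the 20807 on the autosomes, and these lay in 37 regions (7.51%). Per length this is 3.54 starts per Mb, close to the 3.41 per Mb of bases in all 4 lists and below the 8.45 per Mb of the autosomes and the 7.96 per Mb of the mirror regions, which held 105 starts. Sequence in no sorted list had 14.4 per Mb. By class, 25 of the 44 starts were in edge, 9 in gap and 10 in free regions, and 25 were in regions of at least 25 kb. 31 of the 44 lay in regions wholly covered by the unnamed list, and the other 13 in regions with at least 50% coverage.

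Of the 58 regions of at least 50 kb, 49 held no gene start, and 14 of the 44 starts lay in the other 9. Beside AI593442 and Nckap5, these were Gm16485 in a free region of 95 kb (98.8% in the unnamed list) and the neighbours Trim75, Trim61 and Trim60, of the tripartite motif family, in a free region of 60 kb at chr8:64967923-65027922 (98.2%). Nipal2, which encodes a putative magnesium transporter, started in a free region of 55 kb (81.3%), and Pik3c2g, which encodes a class II phosphoinositide 3-kinase, in a gap region of 55 kb (72.7%). Abca9, which encodes an ABC transporter, started in an edge region of 50 kb at chr11:110124688-110174687 (100%), and its neighbour Abca8a in a separate edge region of 20 kb at chr11:110089688-110109687 (100%). Eya1, which encodes a transcriptional coactivator and phosphatase of ear and kidney development, started in an edge region of 50 kb at chr1:14310191-14360189 (99%). Its start, at chr1:14310235, is so near the left end of the region that bins of 5 kb do not resolve the distance. Of this region 0.09% lies in gene bodies. The 4 starts not yet named are of olfactory receptors. In narrower regions, 3 genes of interferon-induced guanylate-binding proteins, Gbp4, Gbp8 and Gbp9, shared a gap region of 15 kb at chr5:105136154-105151153. These genes were named by region width or shared region after their values were seen.

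Gene bodies were better represented than gene starts. 39.6% of the bases lay in protein-coding gene bodies, beside 40.3% of the autosomes, 42.7% of the mirror regions and 18.5% of the sequence in all 4 lists. 169 regions (34.3%) lay wholly within gene bodies, 61 partly and 263 (53.3%) outside. Exons made up 1.86% of the bases, against 3.76% in the mirror regions and 3.76% of the autosomes. The 209 genes whose bodies met a region were long, with a median of 208 kb (quartiles 65.2 and 478 kb) against 17.6 kb over all autosomal genes and 76.1 kb for the 326 genes met by mirror regions. A longer gene offers more sequence for a region to meet, and the part of this in the difference was not tested.

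A low density of gene starts was shared by the sequence of mESC DMSO domains. A share of gene bodies like that of the regions was found in other combinations with that list, but not in sequence in all 4 lists. The 8 combinations with the mESC DMSO list had 2.86 to 6.01 gene starts per Mb, and the 8 without it 6.8 to 15.1. Of those 8 with it, the longest by far, sequence in all 4 lists (880 Mb), had 18.6% of its bases in gene bodies, and the other 7 had 30.4% to 45.3%. Bases in both mESC lists only, single bins included, had 4.61 per Mb with 39.3% in gene bodies, and bases in mESC DMSO only had 3.37 per Mb with 45.3%.

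**Figure D5:**
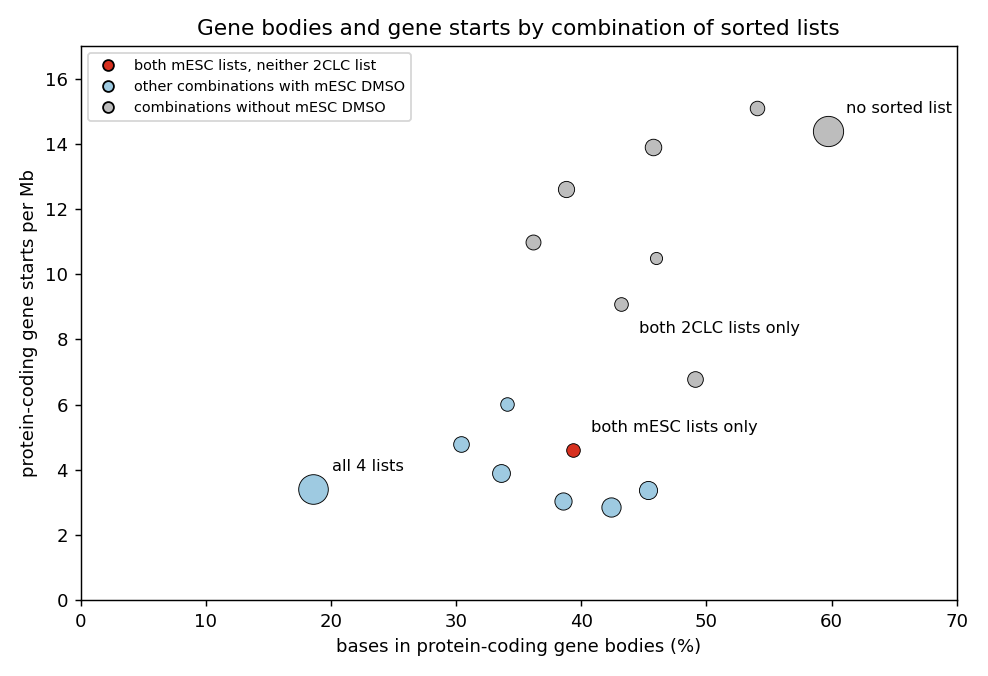
Protein-coding gene starts per Mb (y) against the percentage of bases in protein-coding gene bodies (x) for the 16 combinations of the 4 sorted lists, with larger points for combinations of greater length. The combination from which the regions come is at 39.3% and 4.61 per Mb, among the 8 combinations with mESC DMSO at 2.86 to 6.01 per Mb.

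30 genes were met by more than 1 region, and 5 by at least 3. Rbms3, which encodes an RNA-binding protein and is 1057 kb long, held 5 regions with 205 kb, 3 of them free. The first, of 95 kb at chr9:116696469-116791468, was 245 kb from the nearest 2CLC domain. Cdh13, 1041 kb long, held 4 regions with 280 kb, the greatest length in any of these 5 genes. Nckap5 (917 kb), Dab1 (1125 kb), which encodes an adaptor of reelin signalling, and Cpne4 (487 kb), which encodes a calcium-dependent membrane-binding protein, held 3 regions each, with 90, 80 and 105 kb. All 18 regions in these 5 genes were wholly covered by the unnamed list. Only Nckap5 had its start in one of them, an edge region of 65 kb (chr1:126805041-126870040). These genes were singled out by their number of regions.

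Genes of 13 lists were looked up, from 2-cell transcripts to histones. Of 41 genes of the 2-cell stage, 37 started in both mESC lists, and 1 started in a region (2.44%, beside 0.211% of all gene starts). With 1 start, no result about this list can be drawn. The gene was Pramef12, a member of the PRAME family, in an edge region of 30 kb (chr4:144379426-144409425) of which the unnamed list covered 52.8%. The other 36 starts in both mESC lists therefore lay in a domain of at least 1 2CLC list or in a run too short to be kept. None of 25 pluripotency genes, 26 genes of the H3K9 methylation machinery, 48 germline and meiosis genes or 67 replication-dependent histone genes started in a region, and of these lists only 2 machinery and 2 germline genes started in both mESC lists at all. At the 0.211% of all gene starts, lists of these sizes would hold less than 1 start each. The absence of starts is therefore not a result about these genes.

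Of 1128 olfactory receptor genes, which encode odour receptors, 927 started in both mESC lists and 7 in a region (0.621%, beside the 0.211% of all gene starts). Of the starts in both mESC lists this is 0.755%, beside 44 of 3441 (1.28%) over all genes, so that the order turns with the denominator. 4 of the 7, Olfr1426, Olfr1427, Olfr1428 and Olfr76, shared 1 edge region of 50 kb at chr19:12091841-12141840. Olfr1425 was next to them, in an edge region of 10 kb at chr19:12076841-12086840. Olfr1375 and Olfr332 were in 2 further regions of 10 kb on chromosome 11. The mirror regions also held 7 olfactory receptor starts, but of 105 gene starts in all, beside 7 of 44 in the mESC-shared regions. None of 326 vomeronasal receptor genes started in a region, and 303 of them started in both mESC lists. The shares over all genes are 0.211% of starts and 1.28% of starts in both mESC lists. Whether the absence departs from these low shares was not tested. Of 576 genes of immune, serpin, P450 and other secreted-protein clusters, 335 started in both mESC lists and 3 in a region of 10 kb each. This is 0.521% of the list, beside 0.211% of all gene starts. Of starts in both mESC lists it is 3 of 335, beside 44 of 3441 over all genes. The 3 genes were Klrg1, an inhibitory receptor of killer and T cells, Defb5, a beta-defensin, and Serpina3i, a serine protease inhibitor.

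Members of the developmental and neuronal lists met some regions with their bodies, and none started in one. No gene started in a region among 220 developmental transcription factor genes, 183 genes of neuronal adhesion and guidance or 92 neurotransmitter receptor subunit genes. Nor did any of 170 ion channel genes or 385 Zfp genes. The mirror regions held 1, 3, 3, 2 and 1 starts of these lists in turn. They held 105 gene starts in all, beside 44 in the mESC-shared regions. At the 0.211% of all gene starts, lists of these sizes would hold less than 1 start each, so the absence of starts is not a result about these genes. In the bodies, 18 regions overlapped 13 of the 183 adhesion and guidance genes, beside 209 of all 20807 genes (1%), among them Cdh13, Robo1, a receptor for Slit guidance cues, and Nlgn1, a postsynaptic adhesion protein. 5 regions overlapped 4 of the 170 ion channel genes (Ano4, Cacnb2, Kcnk9 and Kcnma1), and 2 overlapped Chrm3, a muscarinic acetylcholine receptor. The transcription factor genes met were Pax3, Sox5 and Sox6, with 1 region each. Gene length, given above for all genes met, was not taken into account in these counts. These lists were matched by symbol and members of a cluster can share a region, so that their counts are not independent.

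The promoters that did lie in the regions covered a wide range of CpG content. RefSeq promoters of GRCm38.p6 (250 bases before to 50 after the start) were matched by symbol to 26 of the 44 genes. For each gene, the promoter inside the region that lay nearest to the start counted above was taken. It can belong to another start of the gene. For Pik3c2g the promoter is at chr6:139613822-139614121 and the start counted is at chr6:139587221. The CG counts are therefore those of RefSeq promoters in the regions, and not always of the starts counted. Trim60 and Trim61 have the same promoter, so that there were 25 distinct ones. They held a median of 4 CG dinucleotides (range 0 to 47), and 8 of 25 (32%) held 10 or more, against a median of 7 over 31396 autosomal promoters and 44% with 10 or more. At least 1 CG was present in 22 of 25, and in 94.8% of all promoters. The motif CG reads the same on both strands. 3 are shown 5′ to 3′ on the strand of the gene with CG in capitals, because they span this range. They are that of Stxbp5, which encodes the syntaxin-binding protein tomosyn (47 CG, chr10:9900991-9901290, minus strand), that of Nckap5 (12 CG, chr1:126830583-126830882, minus strand) and that of Olfr76 (0 CG, chr19:12120625-12120924, minus strand). The Olfr76 stretch belongs to a RefSeq start, and the start counted above is elsewhere, at chr19:12123203.
Stxbp5: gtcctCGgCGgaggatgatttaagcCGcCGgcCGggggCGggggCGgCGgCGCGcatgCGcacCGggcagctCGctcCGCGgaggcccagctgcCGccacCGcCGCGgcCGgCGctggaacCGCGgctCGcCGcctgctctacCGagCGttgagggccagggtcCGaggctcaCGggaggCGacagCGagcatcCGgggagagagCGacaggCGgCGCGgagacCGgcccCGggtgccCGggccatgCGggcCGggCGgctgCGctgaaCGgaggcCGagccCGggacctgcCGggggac
Nckap5: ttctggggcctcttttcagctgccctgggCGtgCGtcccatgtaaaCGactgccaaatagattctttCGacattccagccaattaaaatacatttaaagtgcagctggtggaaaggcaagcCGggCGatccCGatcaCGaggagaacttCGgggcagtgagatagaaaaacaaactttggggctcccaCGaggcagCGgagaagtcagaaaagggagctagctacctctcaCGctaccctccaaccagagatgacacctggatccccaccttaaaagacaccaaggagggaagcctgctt
Olfr76: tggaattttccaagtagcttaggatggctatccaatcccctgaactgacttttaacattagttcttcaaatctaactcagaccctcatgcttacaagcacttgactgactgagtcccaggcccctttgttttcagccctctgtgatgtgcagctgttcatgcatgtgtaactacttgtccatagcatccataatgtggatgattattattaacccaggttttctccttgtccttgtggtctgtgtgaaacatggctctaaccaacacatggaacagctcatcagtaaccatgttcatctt
The first lay in an edge region of 30 kb, the second in one of 65 kb and the third in one of 50 kb.

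In base composition the regions stood between sequence that is in all 4 lists and sequence in none. Over 2489 windows of 5 kb the median GC content was 42% (quartiles 40 and 44.1), against 38.6% (36.7 to 40.5) for all 4 lists and 45.2% (42.4 to 48.1) for no list. The mirror regions had 41.2% (39.1 to 43.4), so that the quartiles of both overlap widely. CpG density was 7.4 per kb (quartiles 5.6 and 9.4), beside 6.8 in the mirror regions, 4.8 in all 4 lists and 10.4 in none. Soft-masked repeats took 23.9% of a window (quartiles 18 and 31.8), beside 26.8%, 36.7% and 23.6%. By bases, the 16 combinations ranged from 38.7% to 45.3% GC, and the combination of both mESC lists only, at 42%, had lower and higher neighbours among those with mESC DMSO (38.7% to 42.7%).

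Repeated sequence was no more common in the regions as a whole than in the autosomes, but it was uneven among them. 5.1% of their 50-base words recurred on the same strand of the chromosome, beside 6.16% in the mirror regions and 7.62% of the autosomes, and 22 regions had a share of at least 20%. Of the 58 regions of at least 50 kb, 1 had such a share, the region on chromosome 12 described above. By class, 11 of the 70 free regions had such a share, beside 7 of 324 edge and 4 of 99 gap regions. Among the 18 isolated regions 6 had it, with 24.5% to 52.8%. The part of repeated sequence in the calls was not tested.

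The regions were spread over all 19 autosomes, with 8 to 46 on each. Chromosome 9 held the most, with 46 regions and 1.42 Mb, which is 3.8% of its sequence in both mESC lists, beside 1.25% over all autosomes. Chromosomes 5, 1 and 8 held 42, 41 and 35, with 2.21%, 0.996% and 1.98% of their sequence in both mESC lists. Chromosome 11, with 29 regions, had a higher share than these, 2.53%. The mirror regions were distributed differently, with 18 on chromosome 9, 19 on chromosome 5 and 11 on chromosome 8, but 56 on chromosome 2 and 51 on chromosome 3, where mESC-shared regions numbered 28 and 26. With 1 list per group, a difference between chromosomes cannot be told apart from one between cultures or libraries.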

How the data were processed

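H3K9me2 was measured by ULI-NChIP in 28 libraries, and the deposited files are 5 lists of domain positions (chromosome, start and end) with a score of 0 throughout, which carries no measurement. According to the study's methods and the submitters' processing notes, the authors aligned reads to mm10 with STAR 2.7.10, removed duplicates (Picard 2.26.0) and regions of artificially high signal, computed coverage with deepTools 3.5.1, averaged it over 10 kb windows every 5 kb, so that neighbouring bins share signal and a run of 2 bins rests on overlapping windows, took the log2 ratio of ChIP to input, and extended bins above a high percentile until a bin below a low percentile. Pooling of replicates was not stated, and a percentile call does not measure the amount of the mark.

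Lists were assigned to groups by the cell state and treatment in their names, matched to the labels, and the unnamed list to none. Interval arithmetic was done base by base in Python 3.11.15 with numpy 2.4.6, and was tested on simulated intervals. Gene starts and bodies came from GENCODE M21 (protein-coding), sequence from GRCm38.p6, and promoters from RefSeq. Windows with N in at least 50% of bases were left out. Shares of regions carry Wilson 95% intervals. No test was made, since no list has replicates. Regions named were the 10 widest, the widest with no 2CLC domain within 50 kb, and the widest of each class. Genes named were those starting in the 10 widest and list members starting in a region, up to 5 per list by region width, and others were named after their values were seen. The members and gene lists were chosen with earlier results of these data known. Other settings of run length, merging, domain width, overlap and gene definition were tried. 1 further region without a base in the unnamed list is not reported here by name.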

Additional observations from a re-analysis of the deposited data

Results flagged for a closer look

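Chromosome X was outside the rule. Under the same steps it held 13 mESC-shared regions with 0.35 Mb, given here because no comparison above used this chromosome. The mirror regions on chromosome X numbered 85, with 2.12 Mb. The difference was not tested, and with 1 list per group it cannot be told apart from one between cultures.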

How the results depend on the processing

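Counts followed the minimum run length. With limits of 5, 25 and 50 kb there were 995, 184 and 58 regions, 933, 224 and 65 mirror regions, 69, 25 and 14 gene starts, free shares of 7.14%, 22.3% and 22.4%, and coverage by the unnamed list of 90.5%, 96.2% and 100%. The length fell to 4.27 Mb at 50 kb. The ratio of mirror to mESC-shared regions reversed to 0.938 at 5 kb, and to 0.975 when only domains of at least 50 kb entered, where 21.8% of regions were free. Widening 2CLC domains by 5 and 25 kb left 323 and 124 regions with 29 and 12 gene starts, and 3.98 Mb at 25 kb. The same widening of mESC domains left 189 mirror regions at 25 kb. The free share was then not computed, since by construction no region comes within 1 kb of a widened domain as deposited. It was 6.49% when a 2CLC domain within 25 kb counted as touching. Requiring 90% coverage by the unnamed list gave 89.2%. All annotated genes gave 176 starts, and gene bodies 209 genes. The other 57 of 86 alternatives, with median GC content under every setting run, stayed within 1.5 times, the Wilson interval or the quartiles of the value reported. Keeping runs within 10 bases of the limit and leaving out the 10 widest regions were chosen after seeing the data and are among these. No paired analysis was possible because each group has a single list without replicate values. Depth is unknown, and absence from a list does not show absence of H3K9me2.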
